A study of Mus musculus with 12 samples.

Results

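The transcripts of 10 peroxide and superoxide detoxifying enzymes were followed in mouse fibroblasts treated with a proteasome inhibitor, a DNA-damaging drug or both. The members were the listed genes Sod1, Sod2, Cat, Gpx1, Gpx4, Prdx1, Prdx3, Prdx5, Prdx6 and Txn1, matched by symbol, which are 10 of 56980 gene IDs in the deposited table. All 10 were measured in every library and passed the filter on low counts. The cells were NIH/3T3, an immortalised mouse embryonic fibroblast line, of genotype WT. The 4 groups were CFZ-DOX (200 nM carfilzomib with 5 µM doxorubicin), DOX (5 µM doxorubicin), CFZ (200 nM carfilzomib) and DMSO (the vehicle), each for 8 h with 3 libraries of polyadenylated RNA. Carfilzomib blocks the proteasome irreversibly. Doxorubicin, an anthracycline, inserts into DNA and poisons topoisomerase II, and its quinone can pass electrons on to oxygen. No label tells whether replicates came from different cultures, and p-values here measure the spread between these libraries only, which may be technical.

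Superoxide dismutases turn superoxide into hydrogen peroxide, which catalase, the glutathione peroxidases and the peroxiredoxins then reduce to water. Peroxiredoxins that use thioredoxin are re-reduced by it, and thioredoxin reductase recharges thioredoxin with electrons from NADPH. Several of these genes, Prdx1 and the enzymes that recycle thioredoxin among them, are textbook targets of the transcription factor NRF2, which binds the antioxidant response element (ARE) and is degraded by the proteasome in unstressed cells. Glutathione peroxidases 1 and 4 are selenoproteins, made with selenocysteine.

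The libraries held 28278879 to 42033993 counts. Of 10 fibroblast markers, all 10 were detected, and their summed level was 43669 to 75254 CPM (counts scaled to a fixed library total) in CFZ-DOX, 33423 to 57645 in DOX, 18714 to 28531 in CFZ and 26693 to 35037 in DMSO. Unlike the sum, Pdgfra and Pdgfrb were lower in CFZ-DOX and DOX than in DMSO. Pdgfra lay at 18.6 to 26.1 CPM in CFZ-DOX, 28.8 to 41.2 in DOX, 108.5 to 183 in CFZ and 133.5 to 256 in DMSO. Pdgfrb lay at 42.8 to 44.2, 62.3 to 89.6, 35.2 to 57.1 and 180 to 255 CPM in the same groups. Of the markers of other cell types, Ptprc, Adgre1, Epcam, Krt8 and Krt18 reached at most 0.275 CPM in any library. The summed level of 10 blood cell markers (8 of leukocytes and 2 haemoglobin genes) was 22.6 to 37.1 CPM in CFZ-DOX, 18.1 to 30.4 in DOX, 19.4 to 24.8 in CFZ and 13.1 to 14.9 in DMSO. The 8 epithelial markers summed to 97.1 to 136 CPM in CFZ-DOX, 77.7 to 93.3 in DOX, 117 to 198 in CFZ and 67.6 to 103 in DMSO, nearly all of it Krt14, and the 6 endothelial markers to at most 6.31 CPM. Single markers moved with treatment: Cd68 lay at 7.88 to 13.9 CPM in CFZ-DOX, 2.24 to 4.58 in DOX, 1.28 to 1.54 in CFZ and 0.987 to 1.45 in DMSO. Cd14 lay at 12.8 to 21.7 CPM in CFZ-DOX, 14.6 to 23.5 in DOX, 17.4 to 23.2 in CFZ and 11.2 to 13.2 in DMSO, and Pecam1 at 1.10 to 2.58 in CFZ-DOX, 1.31 to 2.63 in DOX and at most 0.0985 in CFZ and 0.226 in DMSO. Their part in the results was not tested. In bulk RNA, fewer cells of a type and less RNA per cell cannot be told apart. Replicate 3 of CFZ-DOX and replicate 3 of DOX stood apart from their groups on principal component 3, which held 5.66% of the variance. Cytosolic ribosomal protein genes took 10.0 ± 0.332% of all counts in CFZ-DOX, 6.85 ± 0.290% in DOX, 4.08 ± 0.253% in CFZ and 4.06 ± 0.179% in DMSO (SD, n = 3 each). Comparisons that involve doxorubicin therefore depended on the scaling: with library factors set by 76 ribosomal protein genes in place of TMM (trimmed mean of M-values), the median log2 fold change of all tested genes shifted by -1.65 for CFZ-DOX against DMSO, -0.87 for DOX against DMSO and -0.10 for CFZ against DMSO. Both values are given below for every member in CFZ-DOX and in DOX against DMSO. Which scaling lies nearer to RNA per cell was not tested.

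The members took a larger share of the libraries in every treated group than in vehicle. They held 0.369 ± 0.0147% of counts in CFZ-DOX, 0.317 ± 0.00695% in DOX, 0.345 ± 0.0126% in CFZ and 0.187 ± 0.00893% in DMSO (SD, n = 3 each). Lengths differ between genes, so levels were compared between genes in TPM, a length-normalised measure computed from the counts and the deposited exon lengths. In DMSO, the thioredoxin transcript Txn1 led with 2489 ± 179 TPM, rank 32 of 56980 gene IDs. The cytosolic peroxiredoxin Prdx1 followed with 574 ± 16.2 TPM, the lipid hydroperoxidase Gpx4 with 328 ± 27.0 TPM and the mitochondrial peroxiredoxin Prdx3 with 238 ± 16.5 TPM. Prdx6 at 118 ± 15.4 TPM and Prdx5 at 106 ± 11.1 TPM had overlapping ranges over the replicates, as did Sod1 at 79.0 ± 2.36 TPM and Cat at 77.6 ± 8.64 TPM. Sod2 lay at 25.7 ± 1.54 TPM, and Gpx1, the abundant selenoenzyme of many tissues, was the lowest member at 6.64 ± 0.343 TPM.

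The order at the top changed under carfilzomib alone. In CFZ, Txn1 at 2298 ± 30.8 TPM and Prdx1 at 2212 ± 103 TPM had overlapping ranges and ranked 40 and 41 of all gene IDs, and Sod1 at 182 ± 10.8 TPM moved level with Prdx6 at 179 ± 19.5 TPM. With doxorubicin the gap at the top was wide, with Txn1 at 4394 ± 377 TPM and Prdx1 at 798 ± 71.2 TPM in CFZ-DOX, and 3849 ± 183 and 789 ± 11.0 TPM in DOX. Gpx4 ranked 3 and Gpx1 ranked 10 in all 4 groups. In CFZ-DOX the ranges of Prdx3, Prdx5, Prdx6 and Sod1 overlapped from neighbour to neighbour, with group means of 171 to 179 TPM.

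**Figure D1:**
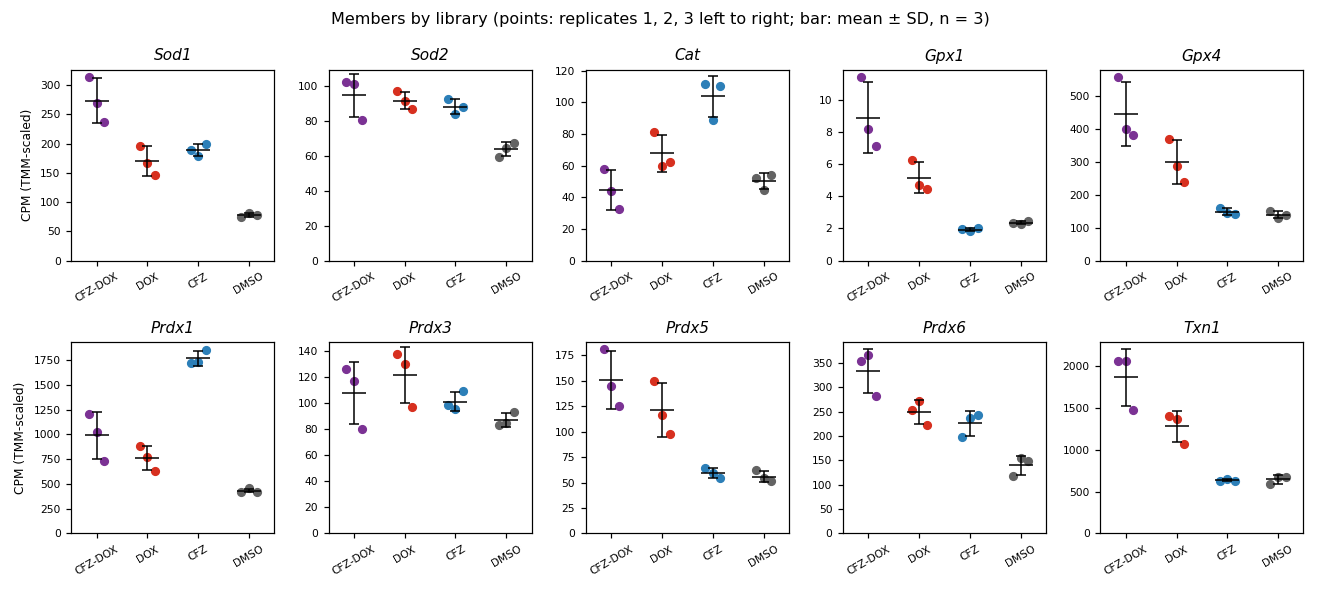
TMM-scaled CPM (y axes, each from 0) of the 10 members in every library of CFZ-DOX, DOX, CFZ and DMSO (x axes); points are replicates 1, 2 and 3 from left to right and bars are mean ± SD (n = 3). Prdx1 and Cat were highest in CFZ. Gpx1, Gpx4, Prdx5 and Txn1 were higher in CFZ-DOX and DOX than in CFZ and DMSO with TMM. These 4 were not called against DMSO with ribosomal protein gene scaling. Replicate 3 of CFZ-DOX was the lowest of its group for all 10 members with TMM, but not for all of them in TPM.

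Each comparison was tested in edgeR over 16648 genes, with calls made at an adjusted p under 0.05. In CFZ against DMSO, 5 members were called higher and 0 lower, where 14.4% of all tested genes were called higher and 14.4% lower. The 5 were Prdx1, Sod1, Cat, Prdx6 and Sod2, and the members' median log2 fold change was 0.34, against -0.01 over all genes. With library factors from ribosomal protein genes 4 were called higher (8.28% of all genes) and 0 lower (14.2%), and the same 4, all but Sod2, were called higher in all 5 scalings, as were 7.91% of all genes. By edgeR, 5 members were higher and 0 lower at an unadjusted p under 0.05, and DESeq2 and limma-voom also called 5 higher and 0 lower.

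In DOX against DMSO, 9 members were called higher and 0 lower, where 36.1% of all genes were called higher and 31.3% lower. The median log2 fold change of the members was 0.91 against 0.14 over all genes, and Cat missed the threshold. At an unadjusted p under 0.05 in edgeR 0 were lower, as with DESeq2 and limma-voom. With ribosomal protein gene scaling, 1 member was called higher (13.4% of all genes) and 3 lower (54.5%). Sod1 was the member called higher in all 5 scalings, as were 13.4% of all genes.

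In CFZ-DOX against DMSO, 8 members were called higher and 0 lower, where 39.3% of all genes were called higher and 35.7% lower. The median log2 fold change was 1.34 against 0.09 over all genes, and Cat and Prdx3 were not called. At an unadjusted p under 0.05 in edgeR 0 were lower, as with DESeq2 and limma-voom. With ribosomal protein gene scaling, 0 members were called higher (11.1% of all genes) and 5 lower (68.6%), and 0 members were called in all 5 scalings, in which 11.1% of all genes were called higher and 24.8% lower. The 3 comparisons share the DMSO libraries.

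**Figure D2:**
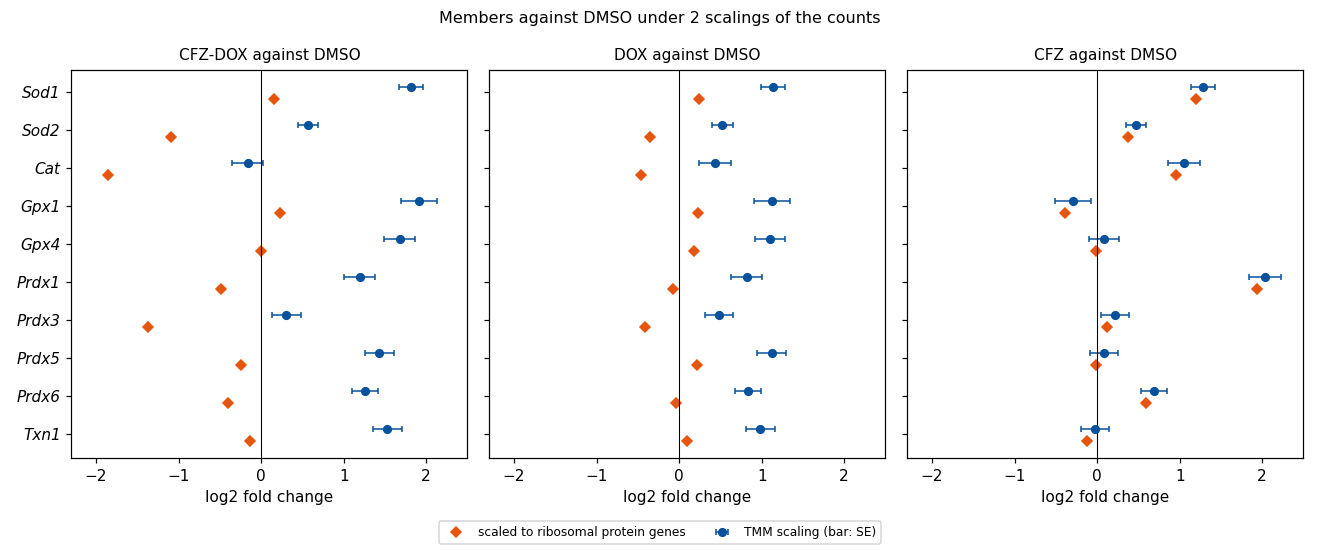
Log2 fold changes (x axes) of the 10 members (y axis) in CFZ-DOX, DOX and CFZ, each against DMSO, with TMM scaling (circles, bars are SE) and with factors from ribosomal protein genes (diamonds, no error drawn). The 2 scalings lie close together for CFZ, while for CFZ-DOX the diamonds fall below 0 for all members but Sod1 and Gpx1.

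Promoter windows are shown for 3 members that part in their response to carfilzomib: Prdx1 and Sod1, with the largest rises against DMSO, and Txn1, the most abundant member, which was not called. The windows run from 250 bases before to 50 bases after the gene start (RefSeq, GRCm38.p6, 5′ to 3′ on the gene's strand), and 9 of the 10 members matched an entry. Capitals mark matches to the ARE core TGACNNNGC on either strand. The windows are chr4:116685349-116685648 on the plus strand for Prdx1, chr16:90220512-90220811 on the plus strand for Sod1 and chr4:57956362-57956661 on the minus strand for Txn1.
Prdx1: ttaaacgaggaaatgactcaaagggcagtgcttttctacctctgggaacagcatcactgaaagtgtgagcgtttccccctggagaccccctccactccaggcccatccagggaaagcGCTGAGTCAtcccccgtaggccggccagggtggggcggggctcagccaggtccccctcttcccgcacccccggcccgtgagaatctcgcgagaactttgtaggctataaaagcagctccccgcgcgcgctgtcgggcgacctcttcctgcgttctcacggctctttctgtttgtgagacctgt
Sod1: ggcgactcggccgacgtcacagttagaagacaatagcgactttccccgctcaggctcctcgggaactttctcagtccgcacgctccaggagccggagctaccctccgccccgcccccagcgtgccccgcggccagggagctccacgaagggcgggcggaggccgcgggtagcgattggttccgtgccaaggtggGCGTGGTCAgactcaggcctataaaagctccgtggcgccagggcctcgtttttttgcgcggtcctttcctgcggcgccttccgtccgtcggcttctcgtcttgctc
Txn1: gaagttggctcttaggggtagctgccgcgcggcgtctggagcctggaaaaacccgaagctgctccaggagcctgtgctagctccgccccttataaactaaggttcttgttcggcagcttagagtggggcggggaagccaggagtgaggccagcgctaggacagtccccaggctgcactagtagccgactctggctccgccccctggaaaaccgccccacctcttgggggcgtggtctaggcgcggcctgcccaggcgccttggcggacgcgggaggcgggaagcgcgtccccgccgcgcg
The match in Prdx1 starts at position -133 from the gene start and shares bases with the AP-1 motif TGACTCA at -131. The match in Sod1 starts at -56. Of the 9 members with a window, 2 held the ARE core, compared with 14% of the 27025 genes in the table. Cat and Sod2, which were also called higher in CFZ, held no ARE core, and Prdx6, likewise called, had no window. Whether the core goes with the response was not tested. The AP-1 motif TGACTCA was found in 1 member, Prdx1, which also holds it at -237, and in 5.95% of genes. The GC box GGGCGG was found in all 9 members and in 38.2% of genes, and CCAAT in 4 members (Sod1, Sod2, Cat and Gpx4) and in 41.1% of genes, counting a gene with several windows once. A match describes letters in this window and is not a bound site.

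Sod1 encodes the copper-zinc superoxide dismutase of the cytosol (chr16:90017642-90023217, plus strand, GRCm39). It had 314.5, 269.2 and 237.0 CPM in CFZ-DOX, 196.7, 167.3 and 146.8 CPM in DOX, 188.4, 179.4 and 199.9 CPM in CFZ, and 74.1, 80.5 and 78.0 CPM in DMSO. Every treated library lay above every DMSO library, and with TMM the CFZ-DOX libraries were highest. In TPM, CFZ-DOX (167 to 177) and CFZ (171 to 192) overlapped. Against DMSO, Sod1 rose 3.53-fold in CFZ-DOX with TMM scaling (log2 1.82 ± 0.15 SE, edgeR adjusted p = 8.66e-08), but with ribosomal protein gene scaling the log2 fold change was 0.15 (adjusted p = 0.177). In DOX it rose by a log2 fold change of 1.13 ± 0.14 SE (edgeR adjusted p = 1.03e-05) with TMM and 0.24 (adjusted p = 0.0471) with ribosomal protein gene scaling. The rise in CFZ was 2.44-fold (log2 1.29 ± 0.15 SE, edgeR adjusted p = 2.04e-05) and 1.20 on the log2 scale with ribosomal protein genes. Sod1 was thus called in each treatment against vehicle with TMM scaling.

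Sod2 encodes the manganese superoxide dismutase of the mitochondrial matrix (chr17:13225733-13258950, plus strand, GRCm39). It had 102.1, 101.2 and 80.3 CPM in CFZ-DOX, 96.8, 91.3 and 86.6 CPM in DOX, 92.6, 83.7 and 88.1 CPM in CFZ, and 59.5, 64.4 and 67.2 CPM in DMSO. With TMM, the treated groups overlapped each other, and each lay above DMSO. In TPM, CFZ-DOX (21.8 to 24.9) and DOX (26.7 to 32.4) overlapped DMSO (24.3 to 27.3). The log2 fold change with TMM was 0.57 ± 0.12 SE in CFZ-DOX (edgeR adjusted p = 0.000738), but -1.09 with ribosomal protein gene scaling (adjusted p = 7.77e-06). In DOX it was 0.52 ± 0.12 SE with TMM (edgeR adjusted p = 0.00178) and -0.35 with ribosomal protein genes (adjusted p = 0.0361). In CFZ it was 0.47 ± 0.12 SE (edgeR adjusted p = 0.0107), and this call was lost without replicate 1 of DMSO (adjusted p = 0.0569) and with ribosomal protein gene scaling (adjusted p = 0.0662).

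The balance between the dismutases does not depend on the scaling. The ratio of Sod1 to Sod2 TPM was 7.30 ± 0.541 in CFZ-DOX, 4.67 ± 0.427 in DOX, 5.42 ± 0.295 in CFZ and 3.07 ± 0.128 in DMSO (SD, n = 3 each). The ratio was higher in every treated library than in any DMSO library. With 3 libraries against 3, the smallest p of an exact two-sided permutation test is 0.10, so no p is given for such ratios. Ccs, the copper chaperone that loads the Sod1 protein, averaged 27.1 CPM in CFZ-DOX, 28.5 in DOX, 23.7 in CFZ and 17.3 in DMSO.

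Cat encodes catalase, the peroxisomal enzyme that splits hydrogen peroxide into water and oxygen (chr2:103284194-103315505, minus strand, GRCm39). It had 57.6, 43.7 and 32.6 CPM in CFZ-DOX, 81.3, 59.5 and 62.1 CPM in DOX, 111.6, 89.0 and 110.3 CPM in CFZ, and 51.8, 44.5 and 53.8 CPM in DMSO. CFZ stood above every other group, and with TMM CFZ-DOX overlapped DMSO. In TPM, CFZ-DOX (37.0 to 47.0) lay below DMSO (67.7 to 83.9). Cat rose 2.07-fold in CFZ against DMSO (log2 1.05 ± 0.19 SE, edgeR adjusted p = 0.000972), and the log2 fold change was 0.96 with ribosomal protein genes. In CFZ-DOX against CFZ it fell by 1.22 on the log2 scale (SE 0.19, edgeR adjusted p = 4.5e-05), and by more, -2.81, with ribosomal protein genes. Cat was called lower in all 5 scalings of that comparison, as were 25.3% of all genes, whereas Prdx1 was not.

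With doxorubicin alone Cat stood close to the threshold, with a log2 fold change of 0.43 ± 0.19 SE against DMSO (edgeR adjusted p = 0.0549). With the replicate number as a block the adjusted p was 0.0197, without replicate 3 of DOX and of CFZ-DOX it was 0.0159, and with ribosomal protein gene scaling the log2 fold change was -0.46 (adjusted p = 0.0292). Against DMSO, the CFZ-DOX value of Cat was -0.17 ± 0.19 SE with TMM (edgeR adjusted p = 0.442) and -1.85 with ribosomal protein genes (adjusted p = 4.84e-07).

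Gpx4 encodes the glutathione peroxidase that reduces lipid hydroperoxides in membranes and restrains ferroptosis (chr10:79883000-79892273, plus strand, GRCm39). It had 558.0, 398.2 and 381.9 CPM in CFZ-DOX, 369.8, 285.9 and 238.1 CPM in DOX, 159.7, 143.1 and 140.0 CPM in CFZ, and 149.2, 129.8 and 139.5 CPM in DMSO. Libraries with doxorubicin lay above all those without it, and CFZ overlapped DMSO. The log2 fold change against DMSO was 1.68 ± 0.18 SE in CFZ-DOX with TMM (edgeR adjusted p = 1.57e-06), and -0.0015 with ribosomal protein genes (adjusted p = 0.992). In DOX it was 1.09 ± 0.18 SE with TMM (edgeR adjusted p = 0.000111) and 0.19 with ribosomal protein genes (adjusted p = 0.205). In CFZ it was 0.08 ± 0.18 SE (edgeR adjusted p = 0.787), with an approximate 95% interval of -0.27 to 0.43. The processed copy Gpx4-ps2 had 25.9 ± 4.57 CPM in CFZ-DOX, 16.8 ± 2.26 in DOX, 7.71 ± 0.253 in CFZ and 7.72 ± 0.894 in DMSO (SD, n = 3 each), so reads may be shared between the copy and the gene.

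Gpx1 encodes the soluble glutathione peroxidase for hydrogen peroxide (chr9:108216102-108217542, plus strand, GRCm39). It had 11.4, 8.17 and 7.12 CPM in CFZ-DOX, 6.28, 4.73 and 4.48 CPM in DOX, 1.964, 1.825 and 2.005 CPM in CFZ, and 2.36, 2.27 and 2.46 CPM in DMSO. The doxorubicin groups lay above the others without overlap, and CFZ lay just below DMSO, also without overlap. The log2 fold change against DMSO was 1.91 ± 0.22 SE in CFZ-DOX (edgeR adjusted p = 2.08e-06) and 1.13 ± 0.21 SE in DOX (edgeR adjusted p = 0.000346), and with ribosomal protein genes these became 0.23 (adjusted p = 0.275) and 0.23 (adjusted p = 0.301). In CFZ it was -0.29 ± 0.22 SE (edgeR adjusted p = 0.358). These values rest on 64 to 318 counts per library. Of the 1441 exon bases of Gpx1, 1210 (84.0%) overlap a gene on the opposite strand, ENSMUSG00000121068, which was given 0 to 5 counts. Reads that fall on both genes may have been left uncounted, and no source used here gives the strand setting of the counting. The low level of Gpx1 is therefore uncertain.

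Doxorubicin added to carfilzomib gave the largest difference seen for Gpx1. In CFZ-DOX against CFZ its log2 fold change was 2.20 ± 0.22 SE (edgeR adjusted p = 5.66e-07) with TMM and 0.62 (adjusted p = 0.00965) with ribosomal protein genes, and it was the member called higher in all 5 scalings, as were 13.3% of all genes. The ratio of Gpx1 to Gpx4 TPM was 0.0238 ± 0.00127 in CFZ-DOX, 0.0209 ± 0.00143 in DOX, 0.0157 ± 0.00127 in CFZ and 0.0203 ± 0.00121 in DMSO (SD, n = 3 each). The CFZ libraries had the lowest ratios, below every library of the other groups.

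Prdx1 encodes the main cytosolic peroxiredoxin with a pair of catalytic cysteines, reduced by thioredoxin (chr4:116542741-116558019, plus strand, GRCm39). It had 1209, 1023 and 735.5 CPM in CFZ-DOX, 881.3, 769.6 and 632.8 CPM in DOX, 1718, 1731 and 1856 CPM in CFZ, and 422.7, 453.3 and 420.4 CPM in DMSO. The CFZ libraries were highest, DMSO was lowest, and CFZ-DOX overlapped DOX. Prdx1 rose 4.09-fold in CFZ against DMSO (log2 2.03 ± 0.19 SE, edgeR adjusted p = 5.16e-06), rank 317 of 16648 genes by log2 fold change, and the log2 value was 1.94 with ribosomal protein genes. Its window, printed above, is the member window with both an ARE core and AP-1 motifs.

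With doxorubicin the level of Prdx1 was lower than with carfilzomib alone. In CFZ-DOX against CFZ its log2 fold change was -0.84 ± 0.19 SE (edgeR adjusted p = 0.000866), -2.42 with ribosomal protein genes, and not called with upper quartile scaling (log2 -0.29, adjusted p = 0.195). Against DMSO, the log2 fold change was 1.19 ± 0.19 SE in CFZ-DOX with TMM (edgeR adjusted p = 4.61e-05) and -0.49 with ribosomal protein genes (adjusted p = 0.000299). For DOX it was 0.82 ± 0.19 SE with TMM (edgeR adjusted p = 0.00142) and -0.08 with ribosomal protein genes (adjusted p = 0.467).

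Prdx6, a peroxiredoxin with a single catalytic cysteine that is reduced by glutathione (chr1:161067682-161078789, minus strand, GRCm39), moved less than Prdx1 in CFZ. It had 354.1, 365.3 and 282.4 CPM in CFZ-DOX, 254.1, 272.2 and 223.3 CPM in DOX, 197.2, 236.9 and 243.5 CPM in CFZ, and 117.6, 153.8 and 148.4 CPM in DMSO. Each treated group lay above DMSO, and with TMM CFZ-DOX lay above DOX and CFZ. In TPM the treated groups overlapped, at 157 to 188 in CFZ-DOX, 146 to 177 in DOX and 157 to 194 in CFZ. Prdx6 rose 1.61-fold in CFZ (log2 0.69 ± 0.16 SE, edgeR adjusted p = 0.00436), and the log2 value was 0.60 with ribosomal protein genes. In CFZ-DOX the log2 fold change against DMSO was 1.25 ± 0.16 SE with TMM (edgeR adjusted p = 5.65e-06) and -0.40 with ribosomal protein genes (adjusted p = 0.011). In DOX it was 0.84 ± 0.16 SE with TMM (edgeR adjusted p = 0.000303) and -0.04 with ribosomal protein genes (adjusted p = 0.803).

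Prdx5, an atypical peroxiredoxin of mitochondria, peroxisomes and cytosol (chr19:6884065-6887474, minus strand, GRCm39), differed with doxorubicin and not detectably with carfilzomib alone. It had 181.2, 145.3 and 125.1 CPM in CFZ-DOX, 149.9, 116.4 and 97.2 CPM in DOX, 64.2, 59.0 and 54.1 CPM in CFZ, and 61.9, 54.1 and 51.3 CPM in DMSO. The doxorubicin groups lay above the others, and CFZ overlapped DMSO. The log2 fold change against DMSO was 1.43 ± 0.17 SE in CFZ-DOX with TMM (edgeR adjusted p = 4.02e-06) and -0.24 with ribosomal protein genes (adjusted p = 0.122). In DOX it was 1.12 ± 0.17 SE with TMM (edgeR adjusted p = 5.84e-05) and 0.21 with ribosomal protein genes (adjusted p = 0.197). In CFZ it was 0.08 ± 0.17 SE (edgeR adjusted p = 0.765), with an approximate 95% interval of -0.25 to 0.42. Prdx5 shares 409 of its 2139 exon bases (19.1%) with Trmt112, which was not called in any of the 6 comparisons.

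Prdx3, the thioredoxin-dependent peroxiredoxin of the mitochondrial matrix (chr19:60852489-60862994, minus strand, GRCm39), had the narrowest range of group means of the members in TMM-scaled CPM. It had 125.7, 116.7 and 80.3 CPM in CFZ-DOX, 137.8, 129.9 and 96.8 CPM in DOX, 98.5, 95.4 and 109.3 CPM in CFZ, and 82.7, 84.9 and 93.4 CPM in DMSO. With TMM, DOX and CFZ lay above DMSO by small margins, and CFZ-DOX overlapped all other groups. In TPM, CFZ-DOX (161 to 195) lay below DMSO (229 to 257). The log2 fold change in DOX against DMSO was 0.48 ± 0.17 SE with TMM (edgeR adjusted p = 0.0221) and -0.42 with ribosomal protein genes (adjusted p = 0.00955). That call was lost without replicate 1 of DOX (adjusted p = 0.0985), replicate 2 of DOX (0.0759), replicate 1 of DMSO (0.0778) or replicate 2 of DMSO (0.0695). For CFZ-DOX it was 0.31 ± 0.17 SE with TMM (edgeR adjusted p = 0.118), called without replicate 3 of CFZ-DOX (adjusted p = 0.00774), and -1.37 with ribosomal protein genes (adjusted p = 3.97e-07). In CFZ it was 0.22 ± 0.17 SE (edgeR adjusted p = 0.382).

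Prdx1 and Prdx3 parted in every treated group. The ratio of Prdx1 to Prdx3 TPM, free of the scaling, was 4.46 ± 0.207 in CFZ-DOX, 3.05 ± 0.156 in DOX, 8.51 ± 0.287 in CFZ and 2.42 ± 0.210 in DMSO (SD, n = 3 each). The groups did not overlap: the CFZ libraries had the highest ratios and the DMSO libraries the lowest.

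Txn1 encodes cytosolic thioredoxin, the electron donor of the peroxiredoxins and of ribonucleotide reductase (chr4:57943373-57956411, minus strand, GRCm39). It had 2064, 2057 and 1476 CPM in CFZ-DOX, 1406, 1364 and 1067 CPM in DOX, 631.0, 648.4 and 624.6 CPM in CFZ, and 587.6, 679.1 and 674.2 CPM in DMSO. CFZ lay within the DMSO range, and both doxorubicin groups lay above it. For CFZ against DMSO the log2 fold change was -0.03 ± 0.17 SE (edgeR adjusted p = 0.938), with an approximate 95% interval of -0.36 to 0.31. For CFZ-DOX it was 1.53 ± 0.17 SE with TMM (edgeR adjusted p = 2.26e-06) and -0.14 with ribosomal protein genes (adjusted p = 0.202). For DOX it was 0.98 ± 0.17 SE with TMM (edgeR adjusted p = 0.000175) and 0.09 with ribosomal protein genes (adjusted p = 0.408).

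The make-up of the member transcripts shows the same contrast without any scaling between libraries. Prdx1 held 12.1% of the summed TPM of the members in CFZ-DOX, 13.1% in DOX, 38.5% in CFZ and 14.2% in DMSO. Txn1 held 66.5% in CFZ-DOX, 63.7% in DOX, 39.96% in CFZ and 61.6% in DMSO. The ratio of Prdx1 to its reductant Txn1 was 0.182 ± 0.0175 in CFZ-DOX, 0.205 ± 0.0108 in DOX, 0.963 ± 0.0558 in CFZ and 0.231 ± 0.0166 in DMSO (SD, n = 3 each). The CFZ ratio stood far above all others, and those of DOX and DMSO overlapped. Catalase held 0.632% of the summed TPM in CFZ-DOX, 1.36% in DOX, 2.63% in CFZ and 1.92% in DMSO.

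**Figure D3:**
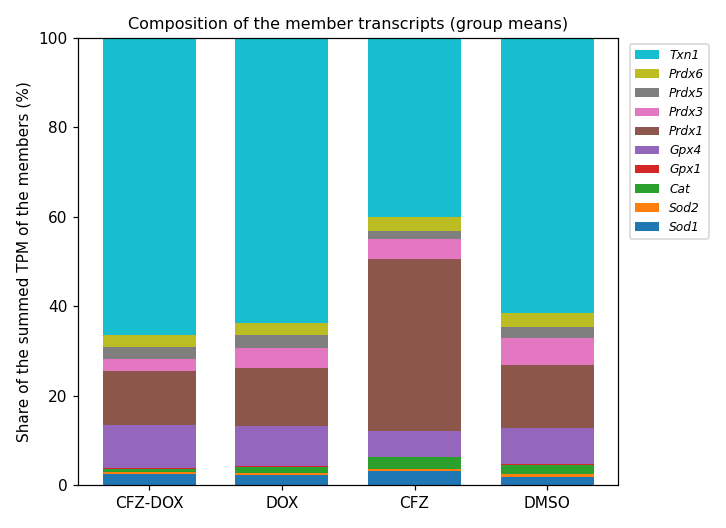
Share of the summed TPM of the 10 members held by each of them (y axis, %, stacked to 100) in CFZ-DOX, DOX, CFZ and DMSO (x axis, means of 3 libraries). Prdx1 held 38.5% in CFZ, compared with 12.1 to 14.2% in the other groups, and Txn1 held 39.96% in CFZ, compared with 61.6 to 66.5%.

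Doxorubicin added to carfilzomib was read from CFZ-DOX against CFZ, where 6 members were called higher and 2 lower, with 40.4% of all genes called higher and 36.9% lower. Higher were Gpx1, Gpx4, Txn1, Prdx5, Prdx6 and Sod1, and lower were Cat and Prdx1. The log2 fold change with TMM was 1.60 ± 0.18 SE for Gpx4 (edgeR adjusted p = 2.25e-06), 1.56 ± 0.17 SE for Txn1 (1.73e-06) and 1.35 ± 0.17 SE for Prdx5 (6.44e-06), and it became 0.01, -0.02 and -0.23 with ribosomal protein genes. For Prdx6 it was 0.56 ± 0.16 SE (edgeR adjusted p = 0.00425) and for Sod1 0.53 ± 0.14 SE (0.00351), and these turned to -0.997 and -1.04 with ribosomal protein genes. Sod2 at 0.10 ± 0.12 SE and Prdx3 at 0.09 ± 0.17 SE were not called with TMM (edgeR adjusted p = 0.462 and 0.64), but were called lower, at -1.47 and -1.49, with ribosomal protein genes, and higher, at 0.65 and 0.64, with upper quartile scaling. With ribosomal protein gene scaling 1 member was called higher (13.3% of all genes) and 6 lower (65.3%).

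Carfilzomib added to doxorubicin was read from CFZ-DOX against DOX, where 4 members were called higher and 1 lower, with 10.3% of all genes called higher and 12% lower. Sod1 had a log2 fold change of 0.68 ± 0.14 SE (edgeR adjusted p = 0.00467), Gpx1 of 0.79 ± 0.21 SE (0.016), Gpx4 of 0.58 ± 0.18 SE (0.0324) and Txn1 of 0.54 ± 0.17 SE (0.0346), while Cat was lower at -0.60 ± 0.19 SE (0.0359). With ribosomal protein genes these log2 values were -0.09, 0.000972, -0.19, -0.23 and -1.40, and 0 members were called higher (0.757% of all genes) and 6 lower (52.9%). In a fit of the 6 libraries of these groups alone, 0 were called higher and 0 lower. The same-numbered libraries of these groups paired, and with a block for the replicate number Prdx5 (log2 0.32, edgeR adjusted p = 0.037) and Prdx6 (0.42, 0.0292) were called as well.

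Several of the calls between CFZ-DOX and DOX were lost when a single library was left out, and for each it could be any of several libraries. Cat lost its call without replicate 2 or replicate 3 of CFZ-DOX or replicate 1 of DOX, with adjusted p up to 0.119. Gpx1 and Gpx4 lost theirs without replicate 1 of CFZ-DOX or replicate 2 or replicate 3 of DOX, with adjusted p up to 0.0804 and 0.148. Txn1 lost its call without replicate 1 or replicate 2 of CFZ-DOX or replicate 2 or replicate 3 of DOX, with adjusted p up to 0.139. Sod1 kept its call when any 1 of the 6 libraries was left out, at an adjusted p of 0.00129 to 0.0222. In TMM-scaled CPM, replicate 3 was the lowest of CFZ-DOX for 10 of 10 members and the lowest of DOX for 9 of 10. The TMM factor was 0.727, 0.851 and 1.04 in replicates 1, 2 and 3 of CFZ-DOX and 0.879, 0.996 and 1.17 in those of DOX. This order did not hold in TPM. There replicate 3 of CFZ-DOX was lowest for Cat, Prdx1, Prdx3 and Txn1, highest for Sod1, and between the other replicates for the remaining members. Sod1 spanned 237.0 to 314.5 CPM with TMM in CFZ-DOX, and 167 to 177 TPM, which uses no such factor. The part of these factors in the calls was not tested beyond the other scalings.

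The interaction of the drugs, the log2 difference between the effect of carfilzomib with doxorubicin and its effect without it, was called for 4 members: 1 higher and 3 lower, where 8.46% of all genes were called higher and 11.2% lower. Prdx1 had an interaction of -1.65 ± 0.26 SE (edgeR adjusted p = 0.000894) and Cat of -1.65 ± 0.27 SE (edgeR adjusted p = 0.00105). Both kept the call in all 5 scalings, as did 6.59% of all genes called lower, and when any 1 of the 12 libraries was left out. For Prdx1 the effect of carfilzomib was 0.38 ± 0.19 SE on the log2 scale with doxorubicin (edgeR adjusted p = 0.154) and 2.03 without it. For Cat it was -0.60 with doxorubicin and 1.05 without it.

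The other calls were weaker. Sod1 had an interaction of -0.60 ± 0.20 SE (edgeR adjusted p = 0.049), lost in 10 of 12 fits that left out a library, with adjusted p up to 0.112. Gpx1 had 1.08 ± 0.30 SE (edgeR adjusted p = 0.0229), lost in 8 of 12 such fits, with adjusted p up to 0.0628, and 0.39 with ribosomal protein genes (adjusted p = 0.296). Gpx4 had 0.50 ± 0.25 SE (edgeR adjusted p = 0.177), which was called with the replicate number as a block (adjusted p = 0.0462) and was -0.17 with ribosomal protein genes (adjusted p = 0.482). Txn1 had 0.57 ± 0.24 SE (edgeR adjusted p = 0.108), called without replicate 3 of CFZ-DOX (adjusted p = 0.016), and -0.11 with ribosomal protein genes (adjusted p = 0.57). Sod2 had -0.42 ± 0.17 SE (edgeR adjusted p = 0.1), and -1.12 with ribosomal protein genes (adjusted p = 0.00104). Under ribosomal protein gene scaling 0 members were called higher (1.48% of all genes) and 6 lower (31.3%).

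**Figure D4:**
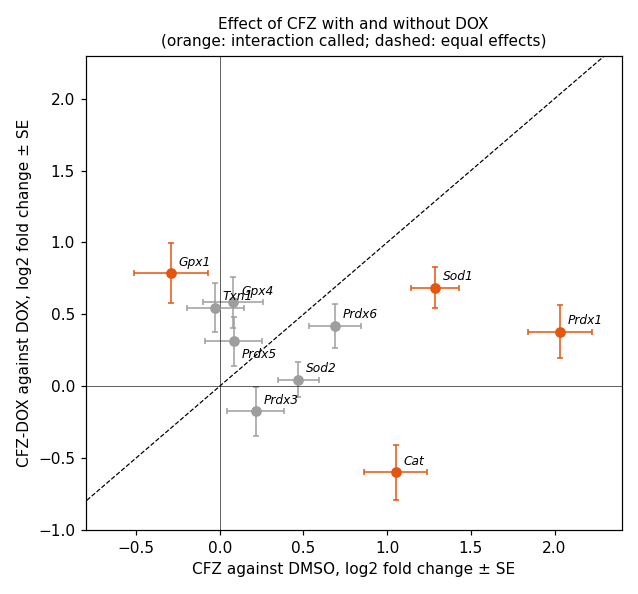
Effect of carfilzomib with doxorubicin (y axis, CFZ-DOX against DOX) and without it (x axis, CFZ against DMSO), both log2 fold changes with TMM scaling and SE bars, for the 10 members; the dashed line marks equal effects and orange points had a called interaction. Prdx1 (0.38 with and 2.03 without doxorubicin) and Cat (-0.60 with and 1.05 without) lie farthest below the line and Gpx1 (0.79 with and -0.29 without) above it.

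Of 10 further genes of the same families, 6 could be tested: Sod3, Gpx7, Gpx8, Prdx2, Prdx4 and Txn2. In CFZ against DMSO 0 were called higher (0 also at an unadjusted p under 0.05) and 2 lower, Gpx8 at log2 -0.76 (edgeR adjusted p = 0.00745) and Gpx7 at -0.60 (0.0376), both glutathione peroxidases of the endoplasmic reticulum. In CFZ-DOX and in DOX against DMSO, 5 of 6 were called higher and 0 lower with TMM (0 lower also at an unadjusted p under 0.05), and with ribosomal protein genes 0 were called higher in either and 2 lower in CFZ-DOX, Gpx7 at -1.34 (adjusted p = 8.06e-06) and Gpx8 at -0.87 (6.22e-05). Prdx2, the second cytosolic peroxiredoxin, had 369 ± 74.9 CPM in CFZ-DOX, 249.7 ± 43.6 in DOX, 99.4 ± 4.81 in CFZ and 116 ± 1.06 in DMSO (SD, n = 3 each). Its CFZ mean lay below DMSO, unlike that of Prdx1. Prdx4, the peroxiredoxin of the endoplasmic reticulum, had 255 ± 57.6 CPM in CFZ-DOX, 158 ± 29.4 in DOX, 88.5 ± 3.55 in CFZ and 75.5 ± 0.519 in DMSO (SD, n = 3 each). Txn2, mitochondrial thioredoxin, had a log2 fold change of 1.53 ± 0.16 SE in CFZ-DOX (edgeR adjusted p = 9.82e-07) and 0.98 ± 0.16 SE in DOX (8.73e-05) against DMSO with TMM, close to the 1.53 and 0.98 of Txn1, and -0.14 and 0.08 with ribosomal protein genes. Of all tested genes, 14.4% were called higher and 14.4% lower in CFZ against DMSO. Against DMSO, the shares were 39.3% and 35.7% in CFZ-DOX and 36.1% and 31.3% in DOX. With ribosomal protein genes they were 11.1% and 68.6% in CFZ-DOX and 13.4% and 54.5% in DOX.

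Srxn1 and Txnrd1, which keep the peroxiredoxins and thioredoxin in working state, were higher in CFZ, as was Prdx1, while Txn1 was not called there. Of 17 genes of thioredoxin recycling and control, 5 were called higher and 0 lower (1 lower at an unadjusted p under 0.05) in CFZ against DMSO, among them Srxn1 (sulfiredoxin, which repairs overoxidised peroxiredoxins) at log2 2.79 ± 0.14 SE (edgeR adjusted p = 2.19e-08) and Txnrd1 (cytosolic thioredoxin reductase) at 1.45 ± 0.14 SE (6.24e-06). Srxn1 averaged 57.1 ± 2.13 CPM in CFZ-DOX, 85.7 ± 3.35 in DOX, 693 ± 90.4 in CFZ and 99.99 ± 6.33 in DMSO (SD, n = 3 each). Txnrd1 averaged 354 ± 43.2 CPM in CFZ-DOX, 422 ± 20.9 in DOX, 1360 ± 40.5 in CFZ and 497 ± 24.2 in DMSO. Both were highest in CFZ and lowest in CFZ-DOX. The other thioredoxin reductases were not called in CFZ against DMSO with TMM, with Txnrd2 of mitochondria at log2 -0.45 ± 0.22 SE (edgeR adjusted p = 0.153; with ribosomal protein genes -0.55, adjusted p = 0.0406) and Txnrd3 at -0.33 ± 0.18 SE (0.195). In CFZ-DOX against CFZ, 5 of the 17 were called higher and 9 lower, with Srxn1 at -3.60 and Txnrd1 at -1.94 (edgeR adjusted p = 1.39e-09 and 3.46e-08), and with ribosomal protein genes 0 higher and 16 lower. Set against DMSO, CFZ-DOX had 5 higher and 9 lower, with the sestrins Sesn1 at -1.71, Sesn3 at -1.53 and Sesn2 at -0.91 among the lower and the methionine sulfoxide reductase Msrb1 at 1.41 among the higher, and with ribosomal protein genes 0 and 16. Of all tested genes, 14.4% were called higher and 14.4% lower in CFZ against DMSO. The shares were 40.4% and 36.9% in CFZ-DOX against CFZ, and 39.3% and 35.7% against DMSO. With ribosomal protein genes they were 13.3% and 65.3% against CFZ, and 11.1% and 68.6% against DMSO.

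**Figure D5:**
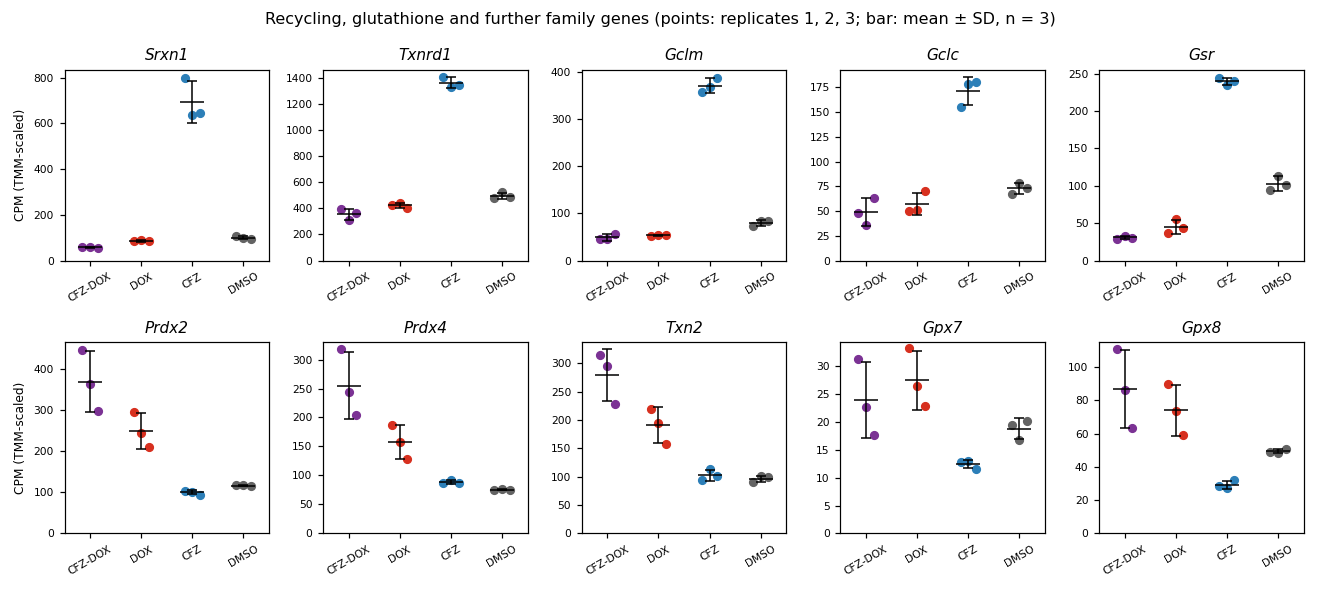
TMM-scaled CPM (y axes, each from 0) of 5 recycling and glutathione genes (upper row) and 5 further family genes (lower row) in every library of CFZ-DOX, DOX, CFZ and DMSO (x axes); bars are mean ± SD (n = 3). Srxn1, Txnrd1, Gclm, Gclc and Gsr were highest in CFZ, while Prdx2, Prdx4 and Txn2 were highest in CFZ-DOX with TMM but were not called higher than in DMSO with ribosomal protein gene scaling.

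Glutathione, which the glutathione peroxidases and Prdx6 consume, is made by the glutamate-cysteine ligase subunits Gclc and Gclm and by Gss, and is recycled by Gsr. Of 15 genes of this system, 9 were called higher and 0 lower (1 lower at an unadjusted p under 0.05) in CFZ against DMSO. They included the cystine transporter Slc7a11 at log2 3.33 ± 0.16 SE (edgeR adjusted p = 2.19e-08), Gclm at 2.21 ± 0.13 SE (9.91e-08) and Gclc at 1.23 ± 0.19 SE (0.000267). In CFZ-DOX against CFZ, 5 were called higher and 6 lower, with Slc7a11 at -4.60, Gsr at -2.95 and Gclm at -2.91 among the lower (edgeR adjusted p of at most 3.03e-09), and with ribosomal protein genes 1 higher and 13 lower. Gss was higher in CFZ against DMSO, at 1.06 ± 0.11 SE with TMM (edgeR adjusted p = 1.12e-05) and 0.97 with ribosomal protein genes (adjusted p = 0.00213). With TMM it was also higher against DMSO at 1.49 ± 0.11 SE in CFZ-DOX and 0.83 ± 0.11 SE in DOX (edgeR adjusted p = 4.67e-08 and 1.59e-05). With ribosomal protein genes these became -0.15 and -0.0406 (adjusted p = 0.461 and 0.853). In DOX against DMSO the counts of the list were 8 higher and 5 lower with TMM, and 2 and 10 with ribosomal protein genes. Of all tested genes, 14.4% were called higher and 14.4% lower in CFZ against DMSO. The shares were 40.4% and 36.9% in CFZ-DOX against CFZ, and 36.1% and 31.3% in DOX against DMSO. With ribosomal protein genes these last 2 comparisons had 13.3% and 65.3%, and 13.4% and 54.5%.

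Selenocysteine insertion, on which Gpx1 and Gpx4 depend, was served by 9 listed genes. Set against DMSO, CFZ-DOX had 1 called higher and 5 lower, with Sephs2 (selenophosphate synthetase) at log2 -2.92 ± 0.24 SE (edgeR adjusted p = 8.47e-08) and Sepsecs, which forms selenocysteine on its tRNA, at -2.66 ± 0.17 SE (1.4e-08), and with ribosomal protein genes 0 higher and 8 lower. The gene called higher was Rpl30, a ribosomal protein gene that also binds the selenocysteine insertion element. In DOX against DMSO the counts were 1 higher and 5 lower with TMM, and in CFZ against DMSO 2 higher and 4 lower. Gpx1 and Gpx4 transcripts were higher with TMM, and not called with ribosomal protein genes, in the same CFZ-DOX and DOX libraries in which Sephs2 and Sepsecs transcripts were lower. Of 16 tested other selenoprotein genes, 7 were called higher and 4 lower in CFZ-DOX against DMSO with TMM, led by Selenow at 2.01 ± 0.19 SE (edgeR adjusted p = 3.6e-07), and 1 and 11 with ribosomal protein genes. Of all tested genes, 39.3% were called higher and 35.7% lower in that comparison with TMM, and 11.1% and 68.6% with ribosomal protein genes. The TMM shares were 36.1% and 31.3% in DOX, and 14.4% and 14.4% in CFZ, each against DMSO.

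NADPH, the final electron source of both systems, is supplied by enzymes of which 16 of 17 listed genes could be tested. In CFZ against DMSO, 3 were called higher and 4 lower. The pentose phosphate enzyme Taldo1 had a log2 fold change of 1.47 ± 0.19 SE and malic enzyme Me1 of 1.09 ± 0.20 SE (edgeR adjusted p = 5.89e-05 and 0.000971), and the isocitrate dehydrogenases Idh2 and Idh1 were lower at -0.98 and -0.70. In DOX against DMSO 9 were called higher and 0 lower with TMM (0 lower also at an unadjusted p under 0.05), and 0 and 8 with ribosomal protein genes. For CFZ-DOX against DMSO the counts were 8 and 1 with TMM, and 0 and 15 with ribosomal protein genes. Of all tested genes, 14.4% were called higher and 14.4% lower in CFZ against DMSO. Against DMSO, the shares were 36.1% and 31.3% in DOX and 39.3% and 35.7% in CFZ-DOX. With ribosomal protein genes they were 13.4% and 54.5% in DOX and 11.1% and 68.6% in CFZ-DOX.

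Among 17 tested regulators of antioxidant genes, 10 were called higher and 1 lower in CFZ against DMSO. Nfe2l2, which encodes NRF2, had a log2 fold change of 0.98 ± 0.19 SE (edgeR adjusted p = 0.00155), its small MAF partner Mafg of 1.36 ± 0.16 SE (2.38e-05), and Sqstm1, whose protein p62 binds KEAP1, of 3.52 ± 0.19 SE (4.99e-08). Also called higher were Keap1, the adaptor that marks NRF2 for degradation, at 0.79 ± 0.13 SE (edgeR adjusted p = 0.000349), and Bach1 at 0.98 ± 0.32 SE (0.0356). With ribosomal protein genes Bach1 was not called (0.89, adjusted p = 0.184). In CFZ-DOX against DMSO the counts were 5 higher and 6 lower with TMM and 1 and 14 with ribosomal protein genes. There Nfe2l2 was lower at -1.22 ± 0.19 SE and Keap1 at -2.04 ± 0.13 SE (edgeR adjusted p = 4.91e-05 and 1.41e-08). Both were also lower in DOX against DMSO, at -0.79 ± 0.19 SE and -1.72 ± 0.13 SE (edgeR adjusted p = 0.00221 and 9.59e-08). The interaction of Nfe2l2 was -1.42 ± 0.27 SE (edgeR adjusted p = 0.00281), next to -1.65 for Prdx1, and 5 of the 17 had an interaction called lower and 2 higher. Of all tested genes, 11.2% had an interaction called lower and 8.46% higher. In CFZ against DMSO 14.4% of all genes were called higher and 14.4% lower. In CFZ-DOX against DMSO the shares were 39.3% and 35.7% with TMM, and 11.1% and 68.6% with ribosomal protein genes.

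Genes with the most similar profiles were sought for the 3 members whose group means ranged widest in TMM-scaled CPM. The measure was the root mean square difference of log2(CPM + 1) over the 12 libraries, each gene centred on its own mean, among 9425 genes with at least 5 CPM on average. The nearest to Prdx1 were Ufd1 (0.146), Psmb3 (0.172) and Blvrb (0.179). Ufd1, a cofactor of the p97 segregase, averaged 127 CPM in CFZ-DOX, 87.5 in DOX, 202 in CFZ and 61.9 in DMSO, and Psmb3 is a subunit of the proteasome core. The nearest to Sod1 were P3h1 (0.163), Napa (0.178) and Fth1 (0.192), the ferritin heavy chain, which averaged 2540 CPM in CFZ-DOX, 1633 in DOX, 1534 in CFZ and 744 in DMSO. The nearest to Gpx1 were Rpn2 (0.0828), Atp5l (0.0874) and Ndufb11 (0.0898). The libraries fall into groups by treatment, so likeness here mostly means a similar set of 4 group means.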

How the data were processed

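The deposited file holds unnormalised read counts by Ensembl gene, with gene coordinates and exon lengths. The tools named in the submitters' processing notes are Trimmomatic 0.39, STAR 2.7.9a, Subread 2.0.2 and its featureCounts, and the build is GRCm39. No source used here gives the strand setting or the annotation release. Symbols came from GENCODE M21, which matched 52073 of 56980 IDs (91.4%) and served for names only. Libraries were grouped by their titles. No replicate pair agreed within sampling noise (chi-square per degree of freedom 12.4 to 107).

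Genes passing edgeR's filterByExpr (minimum count 10, total 15), 16648 in all, were tested with the quasi-likelihood F test (edgeR 4.0.16, R 4.3.3, TMM, robust) in 1 fit of the 12 libraries, with Benjamini-Hochberg adjustment over all tested genes. Log2 fold changes use a prior count of 0.125, the SE was derived from the F statistic, and approximate 95% intervals take the errors as normal. CPM are TMM-scaled, except sums over cell type markers and the values of single markers, which use library totals. TPM divide counts by deposited exon length.

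The members and lists were chosen with earlier results of these data known. All members are named; of every other list, up to 4 called genes of largest change in the direction that prevailed, and 2 in the opposite one, were eligible at a mean of at least 1 CPM. Ccs, Prdx2 in CFZ, Gpx4-ps2, Txnrd2, Txnrd3, Gpx7 and Gpx8 in CFZ-DOX, Duox1, Duox2, and the markers Cd68, Cd14, Pecam1, Pdgfra and Pdgfrb are named outside that rule, chosen after their values were seen. Keap1 and Gss in CFZ were likewise named outside it. The pairing of replicate numbers was taken from the data. Same-numbered libraries deviated together for CFZ with DMSO (r = 0.645, 0.537 and 0.584) and DOX with DMSO (0.312, 0.386 and 0.168). They also did for CFZ-DOX with DOX (0.743, 0.583 and 0.781). Pairing was not clear for CFZ-DOX with CFZ (0.355, 0.108 and 0.119) or with DMSO (0.364, 0.147 and 0.0514). In both, replicate 2 of CFZ-DOX correlated more with replicate 3 of the other group (0.132 and 0.187). Alternatives were 4 other scalings, 2 filters, DESeq2 1.42.0, limma-voom (limma 3.58.1), a replicate block, 6-library fits, libraries left out and an adjusted p under 0.01. The edgeR script was checked on simulated counts.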

Additional observations from a re-analysis of the deposited data

Results flagged for a closer look

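The effect of carfilzomib differed between cells with and without doxorubicin for 4 members by edgeR's interaction test over 16648 genes, 1 higher and 3 lower, where 8.46% of all genes were called higher and 11.2% lower. For Prdx1 the difference was -1.65 on the log2 scale, with an effect of 0.38 with doxorubicin and 2.03 without it. For Cat the difference was -1.65, with -0.60 with doxorubicin and 1.05 without it. For Sod1 the difference was -0.60, with 0.68 with doxorubicin and 1.29 without it, and for Gpx1 it was 1.08, with 0.79 with doxorubicin and -0.29 without it. The call for Sod1 (adjusted p = 0.049) was lost in 10 of 12 fits that left out a library, and that for Gpx1 in 8 of 12 and with ribosomal protein gene scaling (0.39, adjusted p = 0.296). All 3 CFZ-DOX libraries of Cat lay below all 3 DOX libraries, and all 3 CFZ libraries lay above all 3 DMSO libraries.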

How the results depend on the processing

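Of 1120 gene-level values under the alternatives, 958 kept direction and side of the threshold, 69 lost a call, 47 gained one and 46 turned in sign. Of the turns, 25 involved a call, all 25 of these with ribosomal protein gene scaling, and 21 lay between uncalled values. Those with a call were, in DOX against DMSO, Sod2 -0.35, Cat -0.46, Prdx1 -0.0792, Prdx3 -0.42 and Prdx6 -0.0389 (log2). In CFZ-DOX against DMSO they were Sod2 -1.09, Gpx4 -0.0015, Prdx1 -0.49, Prdx3 -1.37, Prdx5 -0.24, Prdx6 -0.40 and Txn1 -0.14. In CFZ-DOX against CFZ they were Sod1 -1.04, Sod2 -1.47, Prdx3 -1.49, Prdx5 -0.23, Prdx6 -0.997 and Txn1 -0.0177. In CFZ-DOX against DOX they were Sod1 -0.0896, Sod2 -0.74, Gpx4 -0.19, Prdx1 -0.41, Prdx5 -0.46, Prdx6 -0.36 and Txn1 -0.23. The turns between uncalled values were Gpx4 -0.0128 and Prdx5 -0.011 in CFZ against DMSO and the interactions of Gpx4 -0.17, Prdx5 -0.44 and Txn1 -0.11 with ribosomal protein genes; Gpx4 -0.0096 and Prdx5 -0.0058 (CFZ against DMSO), Prdx3 -0.0725 (CFZ-DOX against DMSO), Sod2 -0.17 and Prdx3 -0.20 (against CFZ) and Sod2 -0.19 (against DOX) with library size scaling; Cat in CFZ-DOX against DMSO at 0.33 with upper quartile scaling and 0.0283 with a minimum count of 50; and Sod2 in CFZ-DOX against DOX at -0.0182 with no filter. With libraries left out, Txn1 in CFZ against DMSO ran over -0.0909 to 0.0118, and in CFZ-DOX Cat against DMSO over -0.41 to 0.0162, Prdx3 against CFZ over -0.0578 to 0.26 and Sod2 against DOX over -0.0415 to 0.15. The cause was not tested.

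Counts of members called higher and lower with ribosomal protein genes were 1 and 3 (DOX against DMSO), 0 and 5 (CFZ-DOX against DMSO), 1 and 6 (against CFZ), 0 and 6 (against DOX) and 0 and 6 (interaction). Library size scaling called 1 lower in CFZ-DOX against DMSO, 2 lower against DOX, and an interaction for 2 higher and 5 lower. Upper quartile scaling called 8 higher and 1 lower against CFZ, and 5 higher and 0 lower against DOX. In CFZ-DOX against DOX, 6 libraries gave 0 and 0, and an adjusted p under 0.01 gave 1 and 0. An interaction was called higher for 2 with a minimum count of 50, DESeq2, the replicate block, or without replicate 3 of DOX and CFZ-DOX, and for 0 at an adjusted p under 0.01. Leaving out a library gave 1 to 6 higher and 0 to 1 lower in CFZ-DOX against DOX, and an interaction for 0 to 2 higher and 2 to 3 lower. The replicate block changed no calls of members other than Cat (DOX against DMSO, log2 0.42), Prdx5 and Prdx6 (CFZ-DOX against DOX, 0.32 and 0.42) and Gpx4 (interaction, 0.50). The share of all genes called under each setting other than TMM and ribosomal protein gene scaling is not given. Counts under those settings show how calls moved with the processing and cannot be read as particular to the members.

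Gpx1, at 64 to 318 counts per library, is the member whose depth limits its values most. Counting error aside, 3 libraries a group limit the rest.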

Other observations

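Genes that make superoxide or peroxide formed a further list, of which 21 of 30 could be tested. In CFZ against DMSO 4 were called higher (14.4% of all genes) and 2 lower (14.4%). The largest rise was that of the molybdoenzyme aldehyde oxidase Aox1, at a log2 fold change of 3.64 ± 0.34 SE (edgeR adjusted p = 4.43e-06). Ero1b and Ero1a, oxidases that form disulfide bonds and peroxide in the endoplasmic reticulum, were at 1.15 ± 0.16 SE and 0.93 ± 0.20 SE (edgeR adjusted p = 0.000119 and 0.00276). In CFZ-DOX against DMSO 13 were called higher (39.3% of all genes) and 2 lower (35.7%) with TMM. With ribosomal protein genes 3 were called higher (11.1% of all genes) and 15 lower (68.6%). Among those called higher with TMM was Noxo1, which encodes a cytosolic partner of NADPH oxidases, at 2.92 ± 0.29 SE (edgeR adjusted p = 6.34e-07), while transcripts of the oxidase cores Nox1, Cybb, Nox3 and Nox4 reached at most 0.89 CPM in any library. Other oxidase cores of the list were Duox1 and Duox2. Duox1 averaged 6.025 CPM in CFZ-DOX, 6.19 in DOX, 4.53 in CFZ and 4.96 in DMSO, and Duox2 reached at most 0.79 CPM. Aox1, like Cat and Prdx1, had an interaction called lower, at -3.13 ± 0.45 SE (edgeR adjusted p = 0.00043).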
